A study of Ovis aries with 16 samples.

Results

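Prostaglandins are lipid signals made from arachidonic acid. The cyclooxygenases PTGS1, present in most cells, and PTGS2, induced by stimuli and also made by some neurons, form prostaglandin H2, which terminal synthases such as PTGDS, the lipocalin-type prostaglandin D synthase, turn into the active products. The products act on cell surface receptors: PTGER1 to PTGER4 (EP1 to EP4) bind prostaglandin E2 and PTGFR (FP) binds prostaglandin F2 alpha. In the hypothalamus prostaglandin E2 takes part in fever and in driving the pituitary-adrenal stress axis.

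The genes described are 7 prostaglandin genes on an ovine expression array: the cyclooxygenases PTGS1 and PTGS2, the synthase PTGDS, and the receptors PTGER2, PTGER3, PTGER4 and PTGFR. They were taken by name, from the array's gene name or the transcript description of each non-control probe, which gave 11 of 15008 distinct probes and 7 of 986 genes that could be named. PTGS2, PTGER2, PTGER3 and PTGER4 have 2 probes each, and PTGS1, PTGDS and PTGFR have 1 each.

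The arrays measured RNA of the whole hypothalamus of 16 fetal sheep aged 124 to 128 gestational days (of a term of 147), with 1 array per fetus and 4 fetuses per group. All fetuses carried chronically implanted catheters, were bled 4 times and gave their tissue 1 h after the start of a 10 min period of occlusion or sham occlusion. In the estradiol+BCO group estradiol (250 ug per day for 5 days) was followed by brachiocephalic occlusion (BCO), which cuts blood flow to the fetal brain. The BCO group had the occlusion without estradiol, the estradiol group had the hormone and a sham period, and the control group had the sham period alone. A level below is the log2 of the scanner's processed signal minus the log2 of that array's 75th percentile of signal, so 0 is the 75th percentile and a difference of 1 is a 2-fold difference in signal. Levels of different probes cannot be set against each other, because each probe binds with its own strength. In bulk tissue, fewer cells of a type and less RNA per cell cannot be told apart.

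The 75th percentile lay between 2020.5 and 2904 units over the 16 arrays, and 77.3% to 86.4% of probes were well above background. The arrays sat on 2 slides, scanned separately: replicates 1 and 2 of each group on slide 1, replicates 3 and 4 on slide 2. Between the slides 858 of 12937 tested probes (6.63%) differed at an adjusted p under 0.05 (limma), 759 of them higher on slide 2, and no prostaglandin probe was among them. Of 15 defining hypothalamic genes 11 had a tested probe, and the log2 of their summed scaled signal was between 4.14 and 5.10 in estradiol+BCO arrays, 2.29 and 3.64 in BCO arrays, 3.85 and 5.48 in estradiol arrays, and 4.30 and 5.09 in control arrays. The BCO arrays were thus below every other array in this list. Markers of neurons in general and of oligodendrocytes had no tested probe.

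The receptor probes show what the array can resolve, since 2 genes were each covered by 2 probes of nearly the same 60 bases. The sequences below are those deposited with the array, 5′ to 3′, and capitals mark the bases that the 2 probes of a gene share: 58 for PTGER3 and 59 for PTGER4.
PTGER3, from base 423: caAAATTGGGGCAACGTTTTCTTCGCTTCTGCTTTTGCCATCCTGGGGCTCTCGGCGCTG
PTGER3, from base 425: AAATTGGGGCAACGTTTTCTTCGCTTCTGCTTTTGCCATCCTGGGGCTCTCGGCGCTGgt
PTGER4, from base 250: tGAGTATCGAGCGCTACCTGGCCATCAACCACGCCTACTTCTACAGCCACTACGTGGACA
PTGER4, from base 251: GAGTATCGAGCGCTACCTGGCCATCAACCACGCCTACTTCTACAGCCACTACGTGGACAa
The 2 PTGER2 probes come from different transcript records and differ in base composition, 55% G and C in the first and 36.7% in the second, which was well above background on 0 of 16 arrays.
PTGER2, from base 253: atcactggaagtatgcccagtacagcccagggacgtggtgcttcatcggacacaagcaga
PTGER2, from base 244: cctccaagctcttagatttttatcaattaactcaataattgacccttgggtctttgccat
The PTGS2 probes start 184 bases apart near the end of the same transcript and share no base. Their first 30 bases are given, with the first 30 of the PTGDS probe, the brightest of the family.
PTGS2, bright probe, from base 3301: ctgaatctgggaatttggaatatgtgtgtt
PTGS2, dim probe, from base 3117: tgcgtctgttaggcagagggagaaaaatga
PTGDS, from base 547: aggaaggcattgtgttcctgcccaagactg
Positions count from the start of the transcript record that the array's annotation names. Genome coordinates were not used here.

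Of the 11 probes, 8 were well above background on all 16 arrays. The dim PTGS2 probe was above background on 8 arrays (2 estradiol+BCO, 1 BCO, 3 estradiol and 2 control), the first PTGER2 probe on 9 (1, 2, 4 and 2 in the same order), and the second PTGER2 probe on none. No probe was saturated. Testing required 4 arrays above background, which 10 of the 11 probes met.

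None of the 10 tested probes passed an adjusted p of 0.05 (limma with Benjamini-Hochberg adjustment over 12937 probes) in any of the 8 comparisons. Over all probes the same threshold was passed by 1 (0.00773%) between estradiol+BCO and estradiol, by 1 (0.00773%) in the interaction of both treatments, and by 0 (0%) in each of the other 6 comparisons. At an unadjusted p under 0.05, 2 of the 10 prostaglandin probes passed for estradiol+BCO against BCO, where 9.45% of all probes did. Another 2 passed for estradiol+BCO against control, against 5.81% of all probes, and 2 for estradiol averaged over occlusion, against 5.58%. For estradiol+BCO against BCO they were PTGDS and the dim PTGS2 probe. For estradiol+BCO against control they were the 2 nearly identical PTGER3 probes, and for averaged estradiol the 2 PTGS2 probes. Each of these last 2 counts is thus 1 gene, and cannot be read as an excess over the share of all probes. None passed for BCO against control (7.17% of all probes), estradiol+BCO against estradiol (7.73%), estradiol against control (3.28%), BCO averaged over estradiol (7.6%) or the interaction (7.21%). In none of the 5 pairs of groups compared did the arrays of one lie wholly above those of the other for any tested prostaglandin probe, where the share of all probes that did was 4.23% for estradiol+BCO against BCO, 5% for estradiol+BCO against estradiol, 3.66% for both treatments against control, 4.01% for BCO against control and 3.12% for estradiol against control. The median log2 fold change of the 10 probes was -0.08 for estradiol+BCO against BCO (all probes -0.02), 0.16 for estradiol against control (all probes -0.01), -0.17 for estradiol+BCO against estradiol (all probes -0.01) and -0.03 for BCO against control (all probes 0.01). Of all probes, 48.4% lay above 0 when estradiol+BCO was set against estradiol and 51.9% when BCO was set against control, where 1 and 4 of the 10 prostaglandin probes did, counting both probes of PTGS2, PTGER3 and PTGER4. The values of each gene follow in the order of the pathway.

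**Figure D1:**
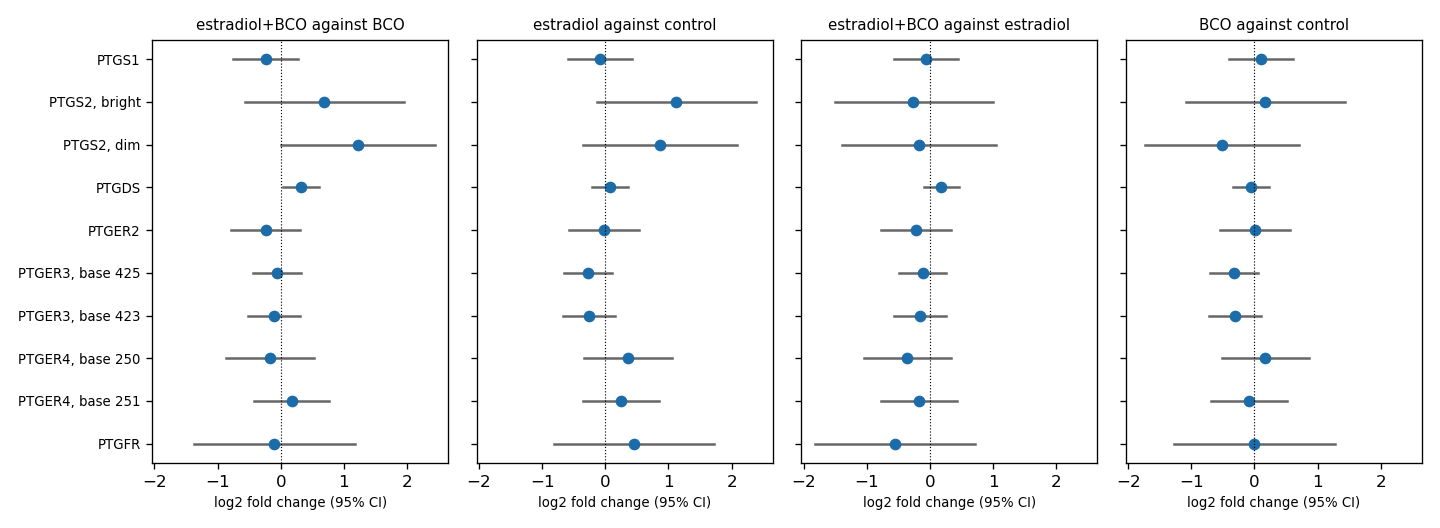
Log2 fold changes (x axis) of the 10 tested prostaglandin probes (rows) in 4 comparisons of 4 arrays each; points are limma estimates and lines their 95% confidence intervals. Both PTGS2 probes lie right of 0 in the 2 estradiol comparisons at left, with intervals wider than 2 log2 units, while PTGDS has the narrowest intervals.

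PTGS2, the inducible cyclooxygenase, was higher on average with estradiol than without it on both probes, by a margin that did not pass the adjusted test. On the bright probe the levels were -1.46, -0.77, -0.80 and -2.70 in estradiol+BCO arrays (replicates 1 to 4), against -1.89, -3.58, -1.39 and -1.64 in BCO arrays. They were -0.72, -1.86, -0.75 and -1.36 in estradiol arrays, against -2.56, -3.29, -2.53 and -0.81 in control arrays. Estradiol+BCO replicates 2 and 3 stood above every BCO array and estradiol replicates 1 and 3 above every control array, but estradiol+BCO replicates 1 and 4 lay below BCO replicate 3 and control replicate 4 was high, so the groups overlapped.

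The group means of the bright PTGS2 probe were -1.43 ± 0.90 in estradiol+BCO, -2.12 ± 0.99 in BCO, -1.17 ± 0.55 in estradiol and -2.30 ± 1.05 in control (SD, n = 4 each). No gap between neighbours in the order estradiol, estradiol+BCO, BCO, control exceeded the larger SD of the pair. Averaged over occlusion, the estradiol-treated arrays were 0.91 ± 0.41 (SE) above the others on the log2 scale, a 1.88-fold difference (95% interval of the log2 value 0.02 to 1.80; adjusted p = 0.879, limma); its unadjusted p was under 0.05. Within slide 1 this difference was 1.63 and within slide 2 it was 0.19. For estradiol+BCO against BCO it was 0.69 ± 0.59 (adjusted p = 0.748), with 1.62 on slide 1 and -0.23 on slide 2, where estradiol+BCO replicate 4 lies. Single arrays moved these values in both directions. Estradiol+BCO against BCO was 0.21 without BCO replicate 2 and 1.12 without estradiol+BCO replicate 4. Estradiol against control, 1.12 over all arrays, was 0.79 without control replicate 2 and 1.62 without control replicate 4.

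The dim PTGS2 probe, which shares no base with the bright one, gave the same order between estradiol-treated and other groups. Its levels were -7.33, -6.57, -6.35 and -7.74 in estradiol+BCO arrays, against -8.13, -9.02, -8.79 and -6.92 in BCO arrays. In estradiol arrays they were -7.09, -7.35, -6.15 and -6.72, against -8.49, -8.82, -7.31 and -6.18 in control arrays. The same estradiol+BCO replicate 4 was the lowest of its group and the same control replicate 4 the highest of its group as on the bright probe, whereas BCO replicate 4 was the highest of its group on the dim probe only. The 8 arrays on which this probe was not well above background carried 4.4 to 17.0 units, so the size of its fold changes rests on signals near the floor.

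On the dim probe the estradiol-treated arrays averaged 1.05 ± 0.40 (SE) above the others (adjusted p = 0.858, limma; unadjusted p under 0.05), with 1.53 within slide 1 and 0.56 within slide 2. Estradiol+BCO against BCO was 1.22 ± 0.57 (adjusted p = 0.528), and 1.63 and 0.81 within the slides, against a BCO group that was above background on 1 of 4 arrays. With background corrected by normexp in place of the scanner's subtraction, which flattens dim probes, estradiol+BCO against BCO was 0.19 on the dim probe and 0.45 on the bright one, and the averaged estradiol difference 0.27 and 0.70. The dim probe was also 0.83 ± 0.35 higher on slide 2 than on slide 1 (adjusted p = 0.198). Over the 16 arrays the 2 probes had a Pearson correlation of 0.79 (Spearman 0.80), 0.76 after removing group means and 0.65 without the 2 arrays farthest from the median; the points share the array, its labelling and its scaling. The probes departed most at BCO replicate 3.

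Occlusion alone left PTGS2 without a common direction on its probes: BCO against control was 0.17 (95% interval -1.08 to 1.43) on the bright probe and -0.52 (-1.73 to 0.70) on the dim one. In estradiol-treated fetuses the occlusion difference was -0.26 (-1.51 to 1.00) and -0.17 (-1.39 to 1.05). The interaction of both treatments was -0.43 ± 0.83 (adjusted p = 0.968) and 0.35 ± 0.80 (adjusted p = 0.980). The interval of BCO against control on the bright probe includes a 2-fold change in either direction. The spread of PTGS2 over the 16 arrays was large for the array: 96% of tested probes had a smaller SD than the bright probe (0.94) and 96.4% a smaller one than the dim probe (0.97), where the median over all tested probes was 0.25. The bright probe's correlation with 4 astrocyte markers was 0.42 by their summed level and 0.38 by the mean of their levels. With 6 markers of fibroblasts and meninges it was 0.29 and 0.38, and with 5 endothelial markers -0.39 and -0.16. The part of these cells in the PTGS2 values was not tested.

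**Figure D2:**
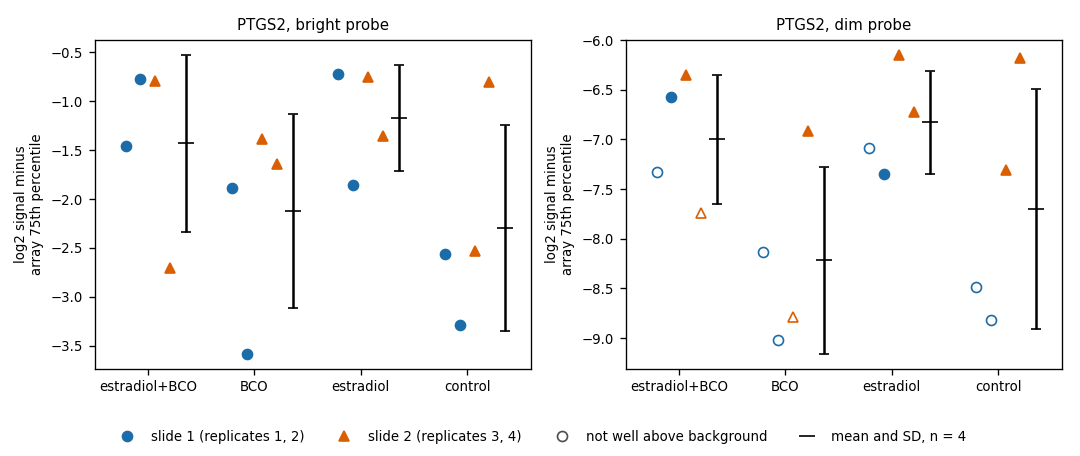
Levels of both PTGS2 probes (y axis, log2 signal minus the array's 75th percentile) on each of the 16 arrays by group; circles are slide 1, triangles slide 2, open symbols were not well above background, and bars give mean and SD (n = 4). On both panels control replicate 4 is the highest control array and estradiol+BCO replicate 4 the lowest of its group.

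PTGS1, the constitutive cyclooxygenase, showed no difference that its spread could separate from 0. Its levels were -1.93, -1.51, -1.53 and -1.97 in estradiol+BCO arrays, against -1.35, -1.25, -1.36 and -2.02 in BCO arrays. They were -2.03, -1.64, -1.70 and -1.31 in estradiol arrays, against -1.30, -2.29, -1.28 and -1.50 in control arrays. All 4 ranges overlapped, and 1 array each in the BCO and control groups lay well below the rest of its group.

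The PTGS1 group means ran from -1.50 ± 0.36 in BCO to -1.73 ± 0.25 in estradiol+BCO, with estradiol at -1.67 ± 0.29 and control at -1.59 ± 0.48 (SD, n = 4 each), and no gap between neighbours exceeded the larger SD. Estradiol+BCO against BCO was -0.24 ± 0.24 (95% interval -0.75 to 0.27) and BCO against control 0.10 ± 0.24 (-0.41 to 0.61). The second of these was 0.50 within slide 1 and -0.30 within slide 2, and it was -0.14 without control replicate 2 and 0.27 without BCO replicate 4. The first was -0.41 without BCO replicate 4. Across arrays PTGS1 did not follow PTGS2 (Pearson 0.00, Spearman -0.24, 16 arrays). Its correlation with 5 endothelial markers was 0.60 by their summed level but 0.26 by the mean of their levels. With 4 astrocyte markers it was -0.50 by either form, and with 6 markers of fibroblasts and meninges 0.19 by the sum and 0.44 by the mean. The part of these cells in the PTGS1 values was not tested.

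PTGDS, the prostaglandin D synthase that is abundant in choroid plexus, meninges and glia, gave one of the strongest signals on the array, with 125257 to 208855 units. The signal of its probe was above that of 99.5% of probes. Its levels were 6.26, 6.45, 6.47 and 6.11 in estradiol+BCO arrays, against 6.08, 5.76, 6.17 and 6.03 in BCO arrays. Here 3 of 4 estradiol+BCO arrays lay above every BCO array, and replicate 4 fell between BCO replicates 1 and 3. In estradiol arrays the levels were 5.95, 6.29, 6.29 and 6.04, against 5.98, 6.37, 5.93 and 5.99 in control arrays. Control replicate 2 stood apart from its group, and the ranges overlapped.

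PTGDS averaged 6.32 ± 0.17 in estradiol+BCO, 6.01 ± 0.18 in BCO, 6.14 ± 0.17 in estradiol and 6.07 ± 0.20 in control (SD, n = 4 each). The step from estradiol+BCO to estradiol, 0.18, was the only gap between neighbours in the order of levels that exceeded the larger SD. Estradiol+BCO against BCO was 0.32 ± 0.13 (SE), a 1.24-fold difference (95% interval of the log2 value 0.03 to 0.60; adjusted p = 0.473, limma; unadjusted p under 0.05), with 0.44 on slide 1 and 0.19 on slide 2. This difference was 0.23 without BCO replicate 2, 0.39 without estradiol+BCO replicate 4 and 0.22 with normexp. Averaged over occlusion the estradiol difference was 0.20 ± 0.09 (adjusted p = 0.880), and the slides gave 0.19 and 0.20. BCO against control was -0.06, with an interval of -0.34 to 0.23, and estradiol against control 0.08, with an interval of -0.21 to 0.36. These intervals are the narrowest of the family and leave no room for a 2-fold change in either comparison. TTR, the only choroid plexus marker with a tested probe, ranged from -2.51 to 1.08 in estradiol+BCO arrays, -1.72 to 3.85 in BCO arrays, -1.09 to 2.07 in estradiol arrays and 0.56 to 3.70 in control arrays. Its correlation with PTGDS over the 16 arrays was -0.23 (Spearman -0.29). The summed level of 4 astrocyte markers was 5.39 to 5.99 in estradiol+BCO arrays, 4.91 to 5.53 in BCO arrays, 5.68 to 5.96 in estradiol arrays and 5.24 to 5.82 in control arrays, and its correlation with PTGDS was 0.49 (0.24 by the mean of the levels). In estradiol+BCO against BCO, where PTGDS differed most, these 4 markers did not share a direction. AQP4, the astrocyte water channel, had a log2 difference of 0.56 ± 0.16 (SE) (adjusted p = 0.295, limma). GFAP was at -0.16, GJA1 at -0.32 and FGFR3 at -0.32. By the mean of their levels the markers stood at -0.01 in estradiol+BCO and 0.06 in BCO arrays. The summed level of 6 markers of fibroblasts and meninges had a correlation of 0.06 with PTGDS. The part of these cells in the PTGDS values was not tested.

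PTGER3, the EP3 receptor, which mostly lowers cyclic AMP, had its lowest mean with both treatments and its highest in control fetuses on both of its probes, a difference that did not pass the adjusted test. On the probe from base 425 the levels were -3.19, -3.29, -2.71 and -2.93 in estradiol+BCO arrays, against -2.68, -2.44, -2.93 and -2.52 in control arrays. The other groups lay between or across these, at -3.42, -3.07, -2.57 and -2.83 in BCO arrays and at -2.86, -3.07, -2.94 and -2.82 in estradiol arrays. Estradiol+BCO replicate 3 and control replicate 3 made the ranges overlap.

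The PTGER3 group means were -3.03 ± 0.26 in estradiol+BCO, -2.97 ± 0.36 in BCO, -2.92 ± 0.11 in estradiol and -2.64 ± 0.22 in control on this probe, and -3.13 ± 0.23, -3.02 ± 0.45, -2.97 ± 0.15 and -2.71 ± 0.20 on the probe from base 423 in the same order (SD, n = 4 each). Only the gap between estradiol and control, 0.28 and 0.26 on the probes, exceeded the larger SD of the neighbours. Estradiol+BCO against control was -0.39 ± 0.18 and -0.42 ± 0.19 (SE; adjusted p = 0.841 for both, limma), with unadjusted p under 0.05 on both probes. Within slide 1 the values were -0.68 and -0.62, and within slide 2 they were -0.10 and -0.21. Because the probes share all but 2 bases, they are 1 measurement of PTGER3 made at 2 spots. BCO against control was -0.33 ± 0.18 (adjusted p = 0.747) and -0.31 ± 0.19 (adjusted p = 0.798), with -0.68 and -0.71 on slide 1 and 0.02 and 0.09 on slide 2. Hypothalamic marker levels were lower in the same BCO arrays, as given above. The Pearson correlation of PTGER3 with these 11 markers over 16 arrays was -0.09 by their summed level. By the mean of their levels it was -0.01, and -0.51 after removing group means. The part of these markers in the PTGER3 difference between BCO and control was not tested.

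**Figure D3:**
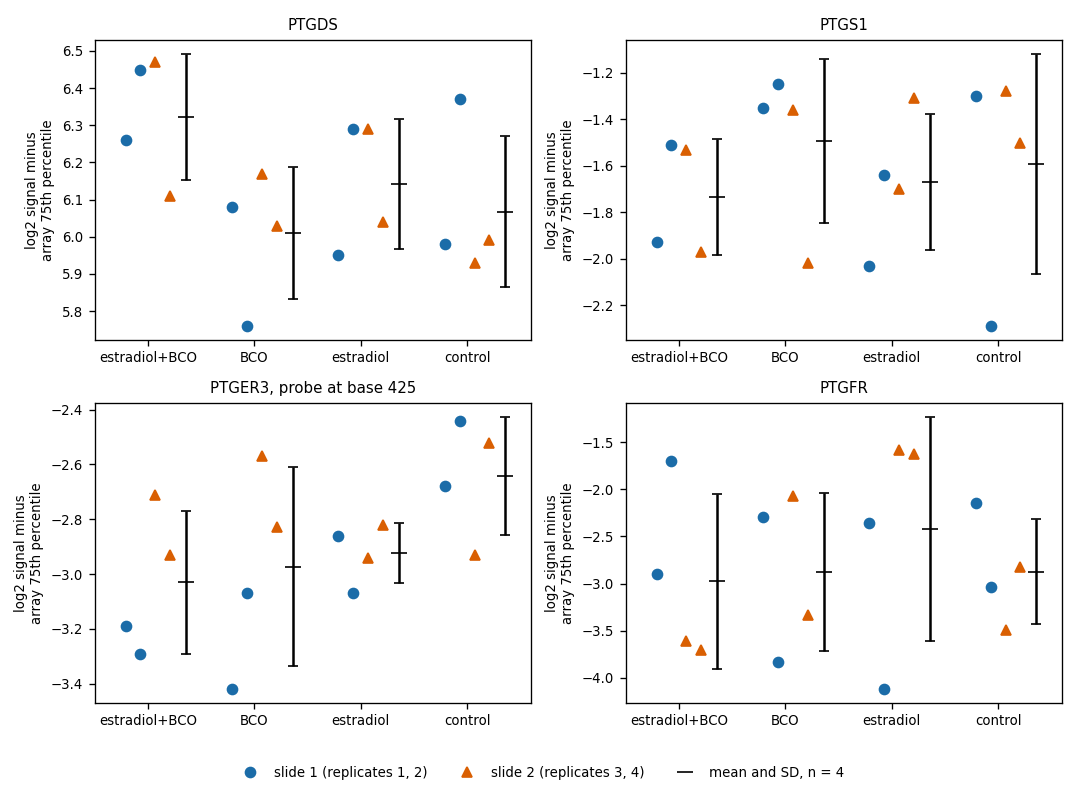
Levels of PTGDS, PTGS1, PTGER3 (probe from base 425) and PTGFR (y axes, log2 signal minus the array's 75th percentile) on each of the 16 arrays by group; circles are slide 1, triangles slide 2, and bars give mean and SD (n = 4). The y axes differ: PTGFR spans 2.54 log2 units within the estradiol group alone, PTGDS 0.35.

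PTGFR, the prostaglandin F2 alpha receptor, varied widely within groups, and none of its comparisons passed the test. Its levels were -2.90, -1.70, -3.61 and -3.70 in estradiol+BCO arrays, against -2.36, -4.12, -1.58 and -1.62 in estradiol arrays. They were -2.29, -3.83, -2.07 and -3.33 in BCO arrays, against -2.15, -3.04, -3.49 and -2.82 in control arrays. Each group held both high and low arrays, and the slides disagreed: estradiol+BCO against estradiol was 0.94 within slide 1 and -2.05 within slide 2.

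Over all arrays that PTGFR comparison was -0.56 ± 0.59 (95% interval -1.82 to 0.71), with -1.12 without estradiol replicate 2 and -0.28 without estradiol replicate 3, and BCO against control was 0.00 ± 0.59 (-1.27 to 1.27). The means were -2.98 ± 0.93 in estradiol+BCO, -2.88 ± 0.84 in BCO, -2.42 ± 1.19 in estradiol and -2.88 ± 0.56 in control (SD, n = 4 each). Its SD over the 16 arrays, 0.84, was larger than that of 94.4% of tested probes. PTGFR and the bright PTGS2 probe, both with 35% G and C, had a Pearson correlation of 0.49 over the 16 arrays (Spearman 0.55), 0.53 on slide 1 and 0.51 on slide 2.

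PTGER4, the EP4 receptor, which raises cyclic AMP, gave signals of 22.8 to 74.2 units, and its probes did not rank the arrays alike. On the probe from base 250 the levels were -6.46, -5.90, -5.29 and -5.35 in estradiol+BCO arrays, against -6.61, -5.21, -5.52 and -4.97 in BCO arrays. On the probe from base 251 the same arrays gave -6.09, -5.99, -5.59 and -5.30 in estradiol+BCO, against -5.93, -5.90, -5.13 and -6.67 in BCO. BCO replicate 4 was thus the highest of all 16 arrays on one probe and the lowest on the other, although 59 of 60 bases are the same. In estradiol arrays the ranges were -5.71 to -5.03 and -6.02 to -5.23, against -6.04 to -5.54 and -6.03 to -5.52 in control arrays, on the probes from bases 250 and 251 in that order.

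No PTGER4 comparison had a p under 0.05 on either probe, and the largest differences between groups were -0.36 ± 0.32 for estradiol+BCO against estradiol and 0.36 ± 0.32 for estradiol against control, both on the probe from base 250. The other probe gave -0.17 and 0.25. The Pearson correlation between the probes was 0.14 over the 16 arrays (Spearman 0.28), and the SD of their difference was 0.57. For PTGER3 these values were 0.88 and 0.14. Among 227 pairs of tested probes on the array whose starts differ by 1 to 3 bases, the median SD of the difference was 0.27 in the 48 pairs with a mean level between -6 and -4, where PTGER4 lies, and 0.17 in the 53 pairs between -4 and -2, where PTGER3 lies. A larger SD than that of PTGER4 was found in 18.8% of the pairs of its band. For PTGER4 the SD of the difference was larger than the SD over arrays of either probe, 0.46 and 0.40.

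**Figure D4:**
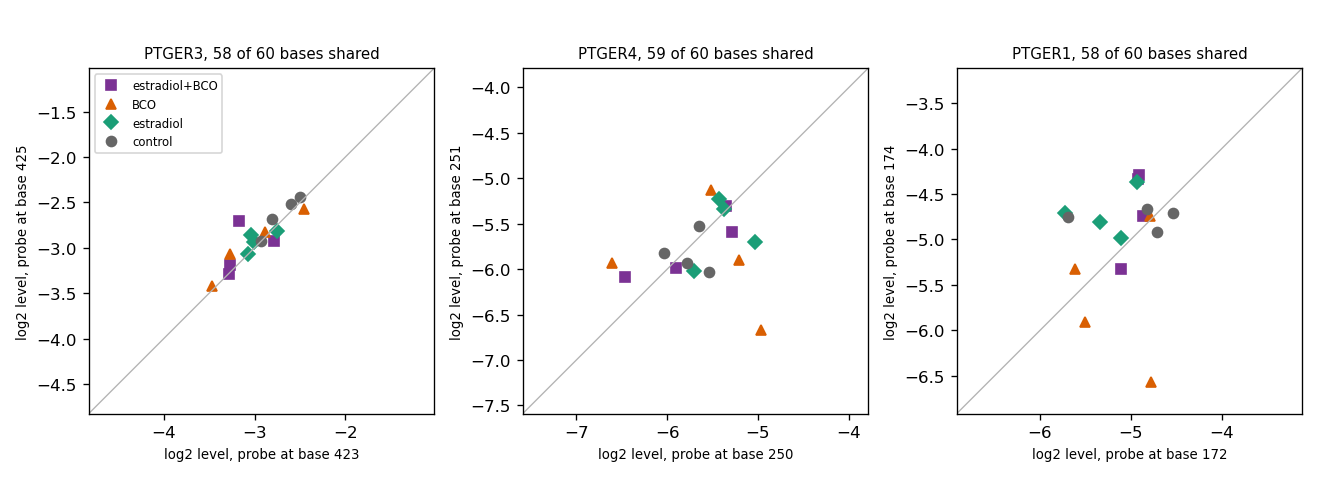
Level on one probe (x axis) against level on the other (y axis), both log2 signal minus the array's 75th percentile, for 3 receptor genes whose 2 probes share 58 or 59 of 60 bases; each point is 1 of 16 arrays, marked by group, and the line marks equal levels. PTGER3 lies along the line (Pearson 0.88), whereas PTGER4 (0.14) and PTGER1 (0.13) scatter, with BCO arrays farthest from it.

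PTGER2, the EP2 receptor, also coupled to cyclic AMP, was at the edge of detection. The probe from base 253 carried 8.9 to 25.3 units, and its mean level was -7.37 ± 0.57 in estradiol+BCO, -7.13 ± 0.21 in BCO, -7.15 ± 0.14 in estradiol and -7.14 ± 0.44 in control (SD, n = 4 each). The largest difference was -0.24 ± 0.26, for estradiol+BCO against BCO (adjusted p = 0.815), and it was 0.01 with normexp. The other probe, at 2.7 to 9.0 units, stayed within background throughout, and no fold is given for it.

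The rest of the pathway was thinly covered. Of 36 further genes, nearly all of prostaglandin and leukotriene synthesis, transport, breakdown and reception, 4 had a probe that could be named and 3 had a tested one: PTGER1, SLCO2A1 and NR3C1, the last being the glucocorticoid receptor, which is no member of the pathway itself. FABP4 was above background on 2 arrays and was not tested. None of the 4 probes of these 3 genes passed the adjusted threshold in any comparison. At an unadjusted p under 0.05, PTGER1 passed on 1 probe and SLCO2A1 on its own, while NR3C1 did not pass in any.

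SLCO2A1, the transporter that takes prostaglandins up into cells, had a higher mean in occluded than in sham fetuses, without passing the adjusted test. Its levels were -2.13, -2.10, -1.85 and -2.14 in estradiol+BCO arrays, against -2.92, -2.47, -2.73 and -2.05 in estradiol arrays. They were -2.20, -2.41, -1.93 and -2.34 in BCO arrays, against -2.39, -2.42, -2.49 and -2.60 in control arrays. Every estradiol+BCO array lay above every control array, a separation that 1.62% of all tested probes showed in that direction for these groups, whereas estradiol replicate 4 and BCO replicate 2 made the other ranges overlap.

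Averaged over estradiol, the occlusion difference of SLCO2A1 was 0.37 ± 0.11 (SE), 1.29-fold (95% interval of the log2 value 0.13 to 0.62; adjusted p = 0.503, limma), and it was 0.34 within slide 1 and 0.40 within slide 2. Of all probes 7.6% had an unadjusted p under 0.05 in this comparison, SLCO2A1 among them at rank 147. Estradiol+BCO against estradiol was 0.49 ± 0.16 (adjusted p = 0.474), with 0.58 on slide 1 and 0.40 on slide 2. BCO against control was 0.26 ± 0.16 (adjusted p = 0.810), with 0.10 on slide 1 and 0.41 on slide 2. The interaction was 0.23 ± 0.23 (adjusted p = 0.914), so the occlusion difference was not shown to depend on estradiol. The probe is printed at 5 spots per array, whose mean was used, and its level is measured in bulk tissue in which the summed level of 5 endothelial markers ran from -0.24 to 0.35 in estradiol+BCO arrays, 0.25 to 0.57 in BCO arrays, -0.21 to 0.56 in estradiol arrays and -0.16 to 0.40 in control arrays. By the mean of their levels the groups stood at -3.47, -3.30, -3.65 and -3.77 in the same order, higher with occlusion. Among them SELP, an adhesion molecule of activated endothelium, differed most for occlusion averaged over estradiol: 1.13 ± 0.33 (SE) in log2 (adjusted p = 0.478, limma). The other markers were at 0.35 (FLT1), 0.16 (ANGPT2), 0.13 (PECAM1) and -0.15 (KDR). The part of these cells in the SLCO2A1 difference was not tested.

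PTGER1, the EP1 receptor, which raises cellular calcium, was low in BCO arrays on one probe and less so on its near copy. On the probe from base 174 the levels were -5.33, -4.74, -4.29 and -4.34 in estradiol+BCO arrays, against -5.32, -4.74, -6.57 and -5.91 in BCO arrays. They were -4.37, -4.98, -4.71 and -4.81 in estradiol arrays, against -4.67, -4.71, -4.75 and -4.92 in control arrays. The low values were BCO replicates 3 and 4, both on slide 2, with replicate 1 next among the BCO arrays.

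On that PTGER1 probe BCO against control was -0.87 ± 0.32 (SE; adjusted p = 0.552, limma) and estradiol+BCO against BCO 0.96 ± 0.32 (adjusted p = 0.344). Within slide 1 these were -0.34 and 0.00, and within slide 2 they were -1.41 and 1.93. With normexp they were -0.41 and 0.45, and without BCO replicate 3 they were -0.56 and 0.65. The probe from base 172, which shares 58 bases with it, gave -0.23 ± 0.26 and 0.22 ± 0.26 in the same comparisons, and -4.78 on BCO replicate 3, where the first probe gave -6.57. On the probe from base 172 BCO replicates 1, 2 and 4 were at -5.62, -4.79 and -5.50, against -4.82, -4.54, -5.69 and -4.71 in control arrays. The correlation between these probes was 0.13 and the SD of their difference 0.66, larger than in all but 10.4% of the pairs of their level band.

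**Figure D5:**
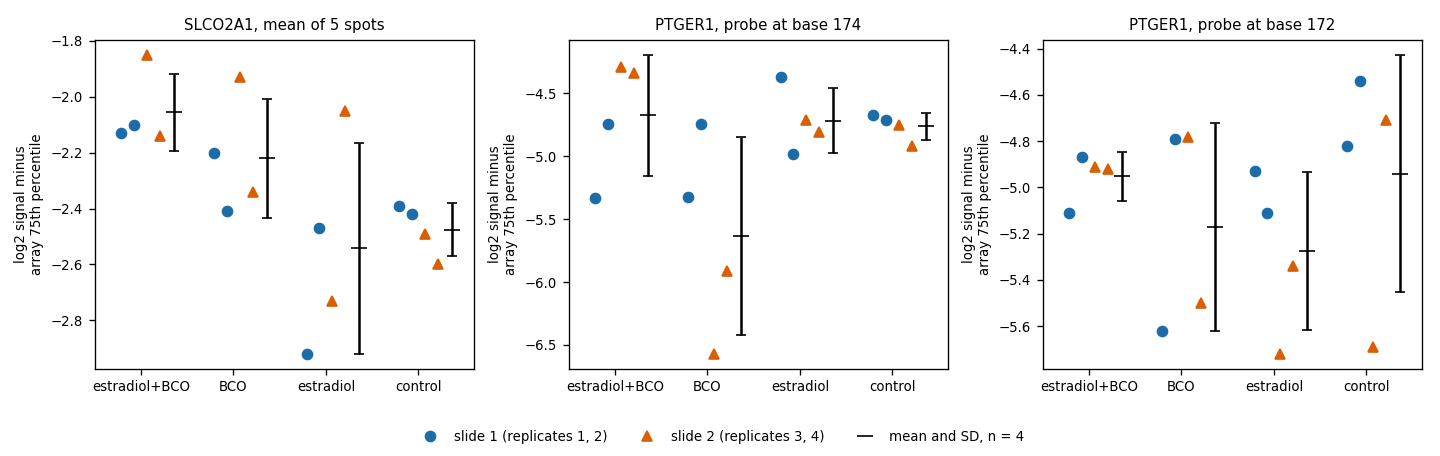
Levels of SLCO2A1 and of the 2 PTGER1 probes (y axes, log2 signal minus the array's 75th percentile) on each of the 16 arrays by group; circles are slide 1, triangles slide 2, and bars give mean and SD (n = 4). All 4 estradiol+BCO arrays of SLCO2A1 lie above the 4 control arrays, and BCO replicate 3 is low on the PTGER1 probe from base 174 but not on that from base 172.

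The genes whose levels followed each prostaglandin gene most closely over the 16 arrays were taken from 870 other genes, each by its brightest tested probe. For PTGS2 they were BMP6 (Pearson 0.78), OMYHC2X (0.72) and ALDH1A1 (0.70), which fell to 0.57, 0.63 and 0.58 without the 2 arrays farthest from the PTGS2 median. For PTGFR they were OMYHC2X (0.87), OMYHC2A (0.85), both myosin heavy chains, and CYP11A1 (0.75), all 3 above background on 8 or fewer arrays. For PTGER3 they were MYOD1 (0.84), CALCA (0.84) and IL3 (0.79), and for PTGER4 PLIN1 (0.86), SGP-1 (0.85) and PTH-RP (0.82). The PTGER4 values are those of the probe from base 250. Its correlation with its own near copy was 0.14, so they describe that probe and cannot be read as a trait of the gene. PTGS1 was followed by LTF (0.70), CYB561 (0.69) and MET (0.68), and PTGER2 by CHRD (0.76), CRYAA (0.76) and FGF2 (0.75). For PTGDS they were ATP6V1E1 (0.62), PRMT1 (0.60) and CLC5 (0.60). Without the 2 arrays farthest from the median of the gene in question, ATP6V1E1 fell to 0.39, CRYAA to 0.40, FGF2 to 0.50 and PTH-RP to 0.57, whereas CLC5 stood at 0.83. These are the highest of many values, given as a description, and the points share labelling, slide and scaling. Among the 7 genes themselves no pair stood first by every measure: the Pearson correlation of PTGER2, which is near background, with PTGER3 was 0.55 (0.39 without the 2 farthest arrays), that of PTGS2 with PTGFR 0.49 (0.41) and that of PTGER3 with PTGER4 0.42 (0.24, but 0.61 after removing group means). On slides 1 and 2 the first pair had 0.45 and 0.61. The slides disagreed for PTGER3 with PTGER4, at 0.60 on slide 1 and -0.52 on slide 2, again by the PTGER4 probe from base 250.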

How the data were processed

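RNA (500 ng per sample; integrity number between 7.4 and 8.4, per the labels' protocols) was labelled with Cy3 and hybridised to a 1-colour Agilent ovine array. Per the file headers, Agilent Feature Extraction 10.1.1.1 made the deposited intensity values, from which background is already subtracted. The deposited log2 value table of the series equals the log2 of that intensity minus each array's median over all 15744 features.

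Outlier spots were left out, spots of 1 probe were averaged, and log2 intensity was scaled by each array's 75th percentile over non-control spots. Probes well above background on at least 4 arrays (12937 of 15008) were fitted with limma 3.58.1 in R 4.3.3, with 4 groups and 16 arrays, and p-values were adjusted over all of them. The fit was also run on simulated data. Their errors were independent between probes and held no slide effect, so that run cannot show how the fit performs on these arrays. Probes were named from the array's names, transcript accessions and descriptions, through RefSeq gene names of assembly ARS-UI_Ramb_v3.0, which gave names to 1595 probes. All probes with a member's name are reported. Further pathway genes are named where an unadjusted p was under 0.05 or where they are synthases or receptors. The most similar genes are the 3 with the highest correlation. Cell type markers were described by their summed level (log2 of the summed scaled signal). Members and lists were chosen with earlier results of these data known. Labels make each array a separate fetus, so p-values measure the spread between fetuses together with the array's own error. The number of arrays limits the precision. The labels do not pair the fetuses by replicate number. After removing group means, arrays with the same number correlated between -0.02 and 0.27 over probes. That range cannot decide on pairing, because arrays with different numbers were not compared and arrays with the same number share a slide.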

Additional observations from a re-analysis of the deposited data

Results flagged for a closer look

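Of 44 sets of 4 arrays (11 probes in 4 groups), 2 held an array farther from its group than Dixon's criterion for 4 values (0.829) allows, where chance gives about 1 in 20. PTGS1 on BCO replicate 4 was at -2.02, against -1.36 to -1.25 on the other BCO arrays. PTGDS on control replicate 2 was at 6.37, against 5.93 to 5.99 on the other control arrays. The same control array gave the lowest PTGS1 level of all 16 arrays, -2.29. Without BCO replicate 4, PTGS1 in BCO against control was 0.27, and without control replicate 2, PTGDS in BCO against control was 0.04 in estradiol+BCO against control 0.36 and in estradiol against control 0.18. PTGS1 in estradiol+BCO against BCO was -0.41 without BCO replicate 4.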

How the results depend on the processing

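The comparisons were repeated under 29 other settings, except that the fit on only the groups compared was run for pairs of groups and not for the averages and the interaction: quantile normalization, median centring, normexp background correction, no filter, a filter on all 16 arrays, a block for the slide, slide 1 or slide 2 only, the replicate block, the authors' deposited log2 table, robust moderation with a trend, only the groups compared, the mean of a gene's probes, and each of the 16 arrays left out. The count of prostaglandin probes past the adjusted threshold was 0 in all 229 repeats (limma), and the smallest adjusted p of any of them was 0.362. The share of all probes passing was not counted in these repeats. In the main fit it was at most 0.00773% in any comparison, so counts of 0 among so few probes do not set the prostaglandin genes apart. With the replicate block, a pairing that the labels do not give, the count was likewise 0 in all 8 comparisons. The averaged estradiol difference of the bright PTGS2 probe was 0.91 with that block. Leaving out 1 array moved every count between 0 and 0.

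Of 2953 repeated fold changes of prostaglandin, SLCO2A1 and PTGER1 probes, 169 turned sign where the difference was within 1 SE of 0, and another 11 where it had exceeded its SE. Within slide 2 these were PTGER3 in BCO against control (0.02 and 0.09) and in BCO averaged over estradiol (0.04), the bright PTGS2 probe in estradiol+BCO against BCO (-0.23) and against control (-0.08), the dim PTGS2 probe in estradiol+BCO against control (-0.30), and the interactions of PTGDS (-0.02) and SLCO2A1 (-0.01). Within slide 1 they were the PTGER1 probe from base 174 in estradiol+BCO against BCO (0.00) and in the interaction (-0.02), and with normexp the probe from base 172 in estradiol+BCO against estradiol (-0.05). Each slide holds 2 arrays a group; the cause was not tested. The smallest adjusted p of any repeat was 0.0709, for the PTGER1 probe from base 174 in estradiol+BCO against BCO within slide 2. Dim probes (PTGER2, PTGER4, the dim PTGS2 probe) limit what can be read, since their signal lay close to background.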
